A study of Mus musculus with 12 samples.

Results

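The cytosolic ribosome of the adult mouse heart was read through 87 ribosomal protein genes among 29795 genes or unnamed features tested. They were chosen by name: every probe whose accession maps to an Rpl or Rps symbol followed by a number, to Rplp0, Rplp1 or Rplp2, or to Rpsa, without the ribosomal S6 kinases, Rps19bp1 and annotated pseudogenes. Of the 87 genes, 47 were counted by symbol with the large subunit, 32 with the small subunit, and 8 belong to a list of paralogs (Rpl3l, Rpl7l1, Rpl10l, Rpl22l1, Rpl36al, Rpl39l, Rps4l and Rps27l). Rpl26l1 and Rps27rt, also listed as paralogs, were not measured. Rpl32l and Rps23rg1, which carry copy-like names outside that list, were counted with a subunit by symbol alone, which does not show that their products are part of it. Rps4l is annotated as a transcribed pseudogene but was kept by its symbol. The genes were covered by 177 probes, all of which passed the filter on dim probes, and 170 of them were well above background on all 12 arrays. Sequences of ribosomal protein genes have many near-identical processed copies in the mouse genome, so a probe may also read transcripts of such copies, and each level is uncertain to that extent.

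Total RNA from the apex of the heart of male C57BL/6J mice aged 15 weeks was hybridised to 12 single-colour arrays, 3 for each of 4 knock-in lines of Nkx2-5, a homeobox gene whose product acts in heart muscle. In I183M/+ hearts the allele replaces an isoleucine with methionine, in I183P/+ hearts the same isoleucine is replaced with proline, and delta/+ hearts carry a deletion allele. The control/+ hearts carry a knock-in allele that keeps the isoleucine, and every group has the altered allele beside a + allele. The labels do not say whether replicates came from separate animals, so p-values measure the spread between these samples. The RNA is from whole tissue, so fewer cells of a type and less RNA per cell cannot be told apart.

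Ribosomal proteins are the protein part of the large and small subunits, and in mammals most are made from a single active gene and are needed in matched amounts. Their mRNAs typically begin with a C followed by a run of pyrimidines, the terminal oligopyrimidine tract, through which mTORC1 and Larp1 set how strongly they are translated. A few have paralogs with narrower expression. Rpl3l takes the place of Rpl3 in ribosomes of heart and skeletal muscle in the mouse, and Rpl10l and Rpl39l are known chiefly from the testis.

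The starts of 66 of the 87 genes were in the RefSeq promoter table of assembly GRCm38.p6. A tract was counted where the base at the annotated start is C and at least 4 further pyrimidines follow it without a break. By that rule 14 of the 66 genes (21.2%) had a tract at the annotated start, against 3.01% of all 27025 genes in the table, and none of the 7 paralogs in the table had one. A missing tract says only that these letters do not stand at this annotated base. The sequences below run from 10 bases before the annotated start to 20 bases into the transcript and are from RefSeq, with the tract in capitals. Rps21, Rpl15, Rpl35a and Rps6 are shown because their values are described below, and Rpl3l as the paralog set against its parent gene in most detail; Rps21 is at chr2:180257369-180257398 (plus strand), Rpl15 at chr14:18270967-18270996 (minus strand), Rpl35a at chr16:33056472-33056501 (plus strand), Rps6 at chr4:86857348-86857377 (minus strand) and Rpl3l at chr17:24727816-24727845 (plus strand).
Rps21: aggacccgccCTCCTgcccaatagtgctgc
Rpl15: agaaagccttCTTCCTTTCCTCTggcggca
Rpl35a: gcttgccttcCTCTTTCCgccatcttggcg
Rps6: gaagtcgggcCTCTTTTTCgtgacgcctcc
Rpl3l: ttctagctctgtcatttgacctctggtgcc
The tract of Rpl15 was 13 bases long, the longest among the members, and that of Rps21 was 5 bases, the shortest that was counted.

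One array set the size of every comparison with the control line. The share of spots well above background was 99.1% on control replicate 1. It was also raised on delta replicate 2 (75.2%) and I183M replicate 1 (72.8%), against 51.2% to 60.5% on the remaining arrays. The 75th percentile of processed intensity was 1450 on control replicate 1, against 506.997 to 656.883 on the other 11 arrays. Levels are log2 processed intensities relative to that percentile, so a raised percentile lowers every bright gene on that array. The ribosomal protein genes had a median of -1.39 on control replicate 1, relative to their own mean over the other 11 arrays, and 85 of the 87 read lowest there. The large subunit had a median of -1.41 and the small subunit of -1.39 on it, and 97 genes of the respiratory chain had -1.37. The exceptions were Rpl10l and Rpl39l, whose probes were well above background on only 3 and 8 of the 12 arrays and read highest there. Results below are therefore given with all 12 arrays and again without control replicate 1.

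On the other 11 arrays the ribosomal protein genes lay close together and moved as a block. Their median ranged from -0.15 to 0.08 in I183M hearts, from -0.17 to -0.02 in I183P hearts and from 0.05 to 0.16 in delta hearts, and was -0.05 and 0.01 in control replicates 2 and 3. Delta replicate 3 held the highest level of 55 of the 87 genes. Large and small subunit moved alike: on delta replicate 3 both had a median of 0.16, and on I183P replicate 3 the medians were -0.17 and -0.16. The low level on I183P replicate 3 was shared by respiratory chain genes (-0.19) and mitochondrial ribosomal proteins (-0.14). On delta replicate 3 these lists had 0.03 and -0.02. With normexp and quantile normalization the family's median was -0.04 on I183P replicate 3 and 0.06 on delta replicate 3.

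**Figure D1:**
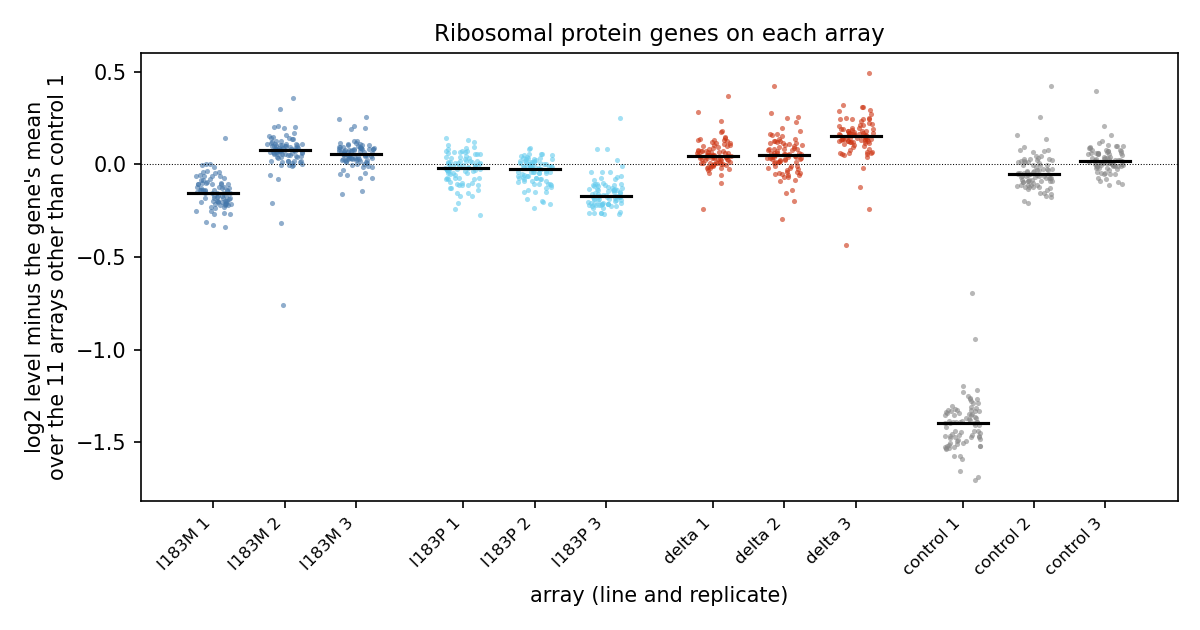
The log2 level of each ribosomal protein gene on each array, minus that gene's mean over the 11 arrays other than control replicate 1 (y axis), for the 12 arrays in 4 lines (x axis). Each point is 1 gene of the 85 that were well above background on all arrays, and bars are medians: over all 87 genes the median is -1.39 on control replicate 1 and between -0.17 and 0.16 on all other arrays.

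No ribosomal protein gene passed an adjusted p of 0.05 in any of the 6 comparisons of the limma fit over all 12 arrays. The background was as thin: 0% of all features tested passed in I183M against control hearts, 0.00336% in I183P against control hearts, 0.0738% in delta against control hearts, and 0% in each of the 3 comparisons between mutant lines. The smallest adjusted p of any ribosomal protein gene was 0.877 in I183M, 0.564 in I183P and 0.491 in delta hearts against control hearts, and 1 between mutant lines. At an unadjusted p under 0.05 there were 2 genes, Rps21 and Rpl4 in delta against control hearts (2 of 87, against 7.43% of all features), and none in the other 5 comparisons. There the share of all features was 1.48% in I183M and 5.19% in I183P against control, 1.27% in I183P against I183M, 3.51% in delta against I183M and 2.79% in delta against I183P hearts.

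With all 12 arrays the genes nevertheless lay above 0 nearly without exception in the comparisons with the control line. In I183M against control hearts the median log2 fold was 0.48, with 87 of 87 genes above 0, beside a median of 0.11 and 56.7% above 0 over all features. In I183P against control hearts it was 0.41 (85 of 87 above 0), beside -0.03 and 48.8%, and in delta against control hearts 0.57 (86 of 87), beside 0.05 and 52.3%. All features include many dim ones. Over features well above background on all 12 arrays, as 85 of the 87 genes were, the medians were 0.27, 0.27 and 0.28. With control replicate 1 left out the family's medians were 0.01 in I183M, -0.04 in I183P and 0.10 in delta hearts. Of the 87 genes 50, 25 and 74 were then above 0. Over all features 64%, 51.7% and 67.1% were above 0, at medians of 0.09, 0.01 and 0.16. The family's median shift against control hearts was near the median of all features without that array. Its shares above 0 were 57.5%, 28.7% and 85.1%, below those of all features in I183M and I183P hearts and above in delta hearts. On the normexp and quantile scale with all 12 arrays the family's median was 0.02, -0.02 and 0.03.

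The interval around each fold shows the precision of these arrays. With all 12 arrays no ribosomal protein gene had a 95% interval within 0.5 log2 units of 0 in the comparisons with control hearts, and the median standard error in I183M against control hearts was 0.34. When it was left out 81 of the 87 genes had such an interval in I183M, 79 in I183P and 78 in delta against control hearts. For most of the family a change of over 0.5 log2 units in either direction lay outside the interval there, while some smaller changes lay within it. No gene passed an adjusted p of 0.05 without that array either, the smallest being 0.726, 0.453 and 0.123 by limma, while 0%, 0.0168% and 0.175% of all features did.

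**Figure D2:**
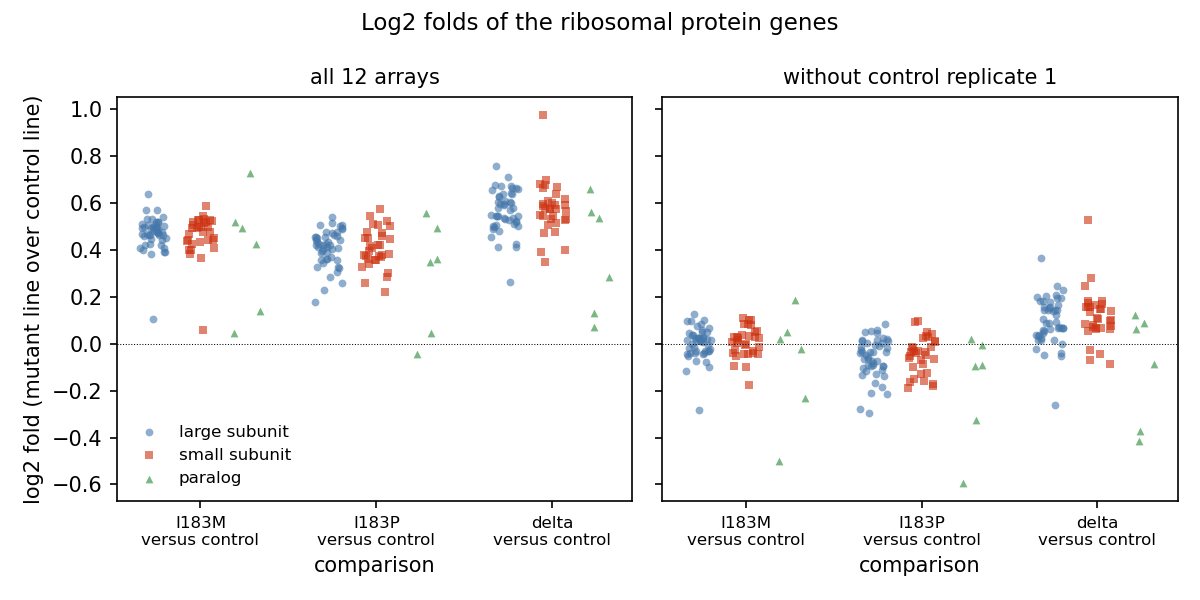
Log2 folds of each mutant line over the control line (y axis) in the 3 comparisons (x axis), with all 12 arrays on the left and without control replicate 1 on the right. Each point is 1 of 85 genes (circles, large subunit; squares, small subunit; triangles, paralogs; Rpl10l and Rpl39l are left out as dim). The points centre on 0.48, 0.41 and 0.57 on the left and on 0.01, -0.04 and 0.10 on the right, and the point at 0.98 (left) and 0.53 (right) is Rps21 in delta hearts.

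Rps21, a small subunit protein, had the smallest p of the family in delta hearts. Its log2 level was 6.00, 6.06 and 5.95 in delta hearts. It was 5.30, 5.42 and 5.56 in I183M hearts and 5.56, 5.44 and 5.72 in I183P hearts, against 4.13, 5.43 and 5.53 in control hearts. The 3 delta arrays were the 3 highest of the 12, with no overlap with any other line. The log2 fold of delta over control hearts was 0.98 ± 0.33 (SE, n = 3 per line), with an unadjusted p of 0.0159 and an adjusted p of 0.491 by limma, and 0.53 ± 0.12 (adjusted p = 0.123) without control replicate 1. Delta over I183M hearts gave 0.58 and delta over I183P hearts 0.43 (adjusted p = 1 for both with all arrays, 0.137 and 0.301 without control replicate 1). All delta arrays were on the second of 2 slides, with I183P replicate 3 as the only other array, and that array had the highest level outside the delta line. Within that slide the fold of delta over I183P was 0.28, and with slide as a block delta over control was 0.76 with all arrays and 0.31 without control replicate 1. Over all settings run, delta over I183P ranged from 0.02 to 0.50 (26 settings). Delta over I183M ranged from 0.36 to 0.73 and delta over control from 0.31 to 1.35 (25 settings each). The part of the slide in the higher level of Rps21 was not tested beyond these values.

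Rpl4, a large subunit protein, read 6.72, 6.68 and 6.92 in delta hearts. In I183M hearts it was 6.33, 5.67 and 6.38, so I183M replicate 2 lay well below the other two. In I183P hearts it was 6.32, 6.40 and 6.52, against 5.24, 6.36 and 6.46 in control hearts. The delta arrays were again above all others. As for Rps21, the highest level outside the delta line was that of I183P replicate 3, the only other array on their slide. The part of the slide was not tested. The fold of delta over control hearts was 0.76 ± 0.33 (SE; adjusted p = 0.665 by limma), and 0.37 ± 0.21 without control replicate 1 (adjusted p = 0.454). On the normexp and quantile scale it was 0.21.

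The next smallest p in delta hearts belonged to Rpsa, the laminin receptor-related protein of the small subunit, and to Rpl32, a large subunit protein often used as a reference gene. Rpsa read 8.12, 8.24 and 8.05 in delta hearts and 6.61, 7.84 and 7.88 in control hearts, a fold of 0.70 ± 0.31 (SE; limma adjusted p = 0.677). Rpl32 read 7.50, 7.55 and 7.68 in delta hearts and 6.09, 7.35 and 7.30 in control hearts, a fold of 0.66 ± 0.31 (adjusted p = 0.694). Leaving out control replicate 1 gave 0.28 and 0.25 (limma adjusted p = 0.308 and 0.304). The delta levels of both lay above every control level.

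That separation was common in the family. In delta against control hearts 36 of 87 genes had every delta array above every control array, against 10.8% of all features, and none had the reverse, against 3.07%. Over the 11 arrays without control replicate 1 the count was again 36, but against 22.8% of all features, and 3 genes had the reverse, against 11.4%. Against I183P hearts 44 genes were higher in delta hearts without overlap (background 13.8%), and against I183M hearts 22 (background 11.3%). The reverse held for 1 gene in each, Rpl3l, against 5.94% and 6.24% of all features. Since the genes move as a block on each array at this scaling, these counts rest on the level of a few arrays and not on so many separate measurements. On the normexp and quantile scale the counts were 26 against control (background 10.1%), 22 against I183P (10.7%) and 20 against I183M hearts (11.3%), with 6 (5.03%), 2 (9.15%) and 8 (8.85%) genes lower without overlap. The single gene of this kind in I183P against control hearts was Rpsa (1 of 87, background 7.5%), and none was lower (5.24%). With control replicate 1 left out, 26 genes (29.9%) were lower in I183P than in control hearts without overlap, against 16.1% of all features, and 2 were higher, against 14.5%. With all arrays on the normexp and quantile scale, 12 were lower (background 7.78%) and 9 higher (background 10%). None of these genes passed the test.

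In I183M against control hearts the smallest p belonged to Rpl22l1, Rplp1, Rps2 and Rplp0. Rplp1, a protein of the stalk that recruits elongation factors, read 7.30, 7.24 and 7.18 in I183M hearts and 5.58, 7.10 and 7.14 in control hearts, a fold of 0.64 ± 0.37 (SE; limma adjusted p = 0.877). It was the single gene with every I183M array above every control array (1 of 87, background 2.62%), and none had the reverse (1.33%). Its fold was 0.13 without control replicate 1, when 3 genes were higher without overlap (background 23.6%) and 6 lower (background 8.76%). Rps2, near the mRNA entry site of the small subunit, gave 0.53 ± 0.32 and Rplp0, the base of the stalk, 0.52 ± 0.31, with the same adjusted p. Rps2 and Rplp0 were at 0.11 and 0.10 without control replicate 1.

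In I183P against control hearts the smallest p belonged to Rpsa (0.51 ± 0.31, SE), Rps21 (0.54 ± 0.33), Rpl35a (0.50 ± 0.32), a large subunit protein, and Rplp0 (0.47 ± 0.31), each with a limma adjusted p of 0.564. Leaving out control replicate 1 gave 0.10, 0.09, 0.08 and 0.05. Rpl35a read 6.78, 6.78 and 6.47 in I183P hearts and 5.34, 6.49 and 6.69 in control hearts, so the groups overlapped. Among the 11 other arrays the genes with an unadjusted p under 0.05 were instead lower in I183P hearts: Rps4l, Rpl7l1, Rpl15 and Rpl21 (4 of 87, background 4.31% in that direction). This count is near the background and no more than that.

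Rpl15, a large subunit protein, read 6.67, 6.75 and 6.71 in I183P hearts and 6.72, 6.62 and 6.89 in delta hearts. Its level was 6.82, 6.91 and 6.94 in I183M hearts, against 5.43, 6.98 and 7.03 in control hearts. Without control replicate 1 the fold was -0.30 ± 0.10 in I183P and -0.26 ± 0.10 in delta hearts against control (SE; limma adjusted p = 0.478 and 0.286), and with all arrays it was 0.23 and 0.26. Its direction against control hearts thus turned with that array, and its 2 probes disagreed in sign in I183P against I183M hearts.

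**Figure D3:**
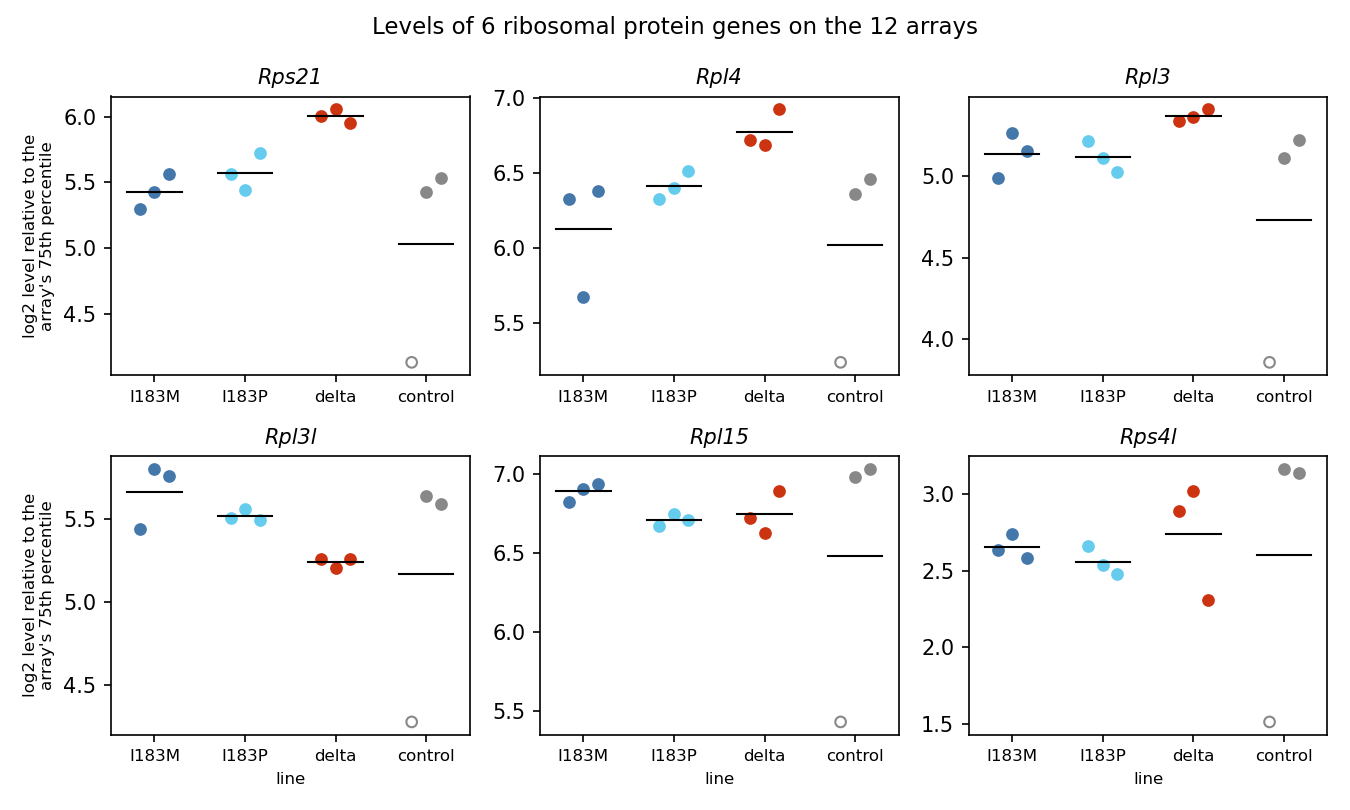
Log2 levels relative to each array's 75th percentile (y axis) of 6 ribosomal protein genes in the 4 lines (x axis); each point is 1 array, bars are means of 3 arrays and the open circle is control replicate 1. Rps21, Rpl4 and Rpl3 have their 3 highest levels in delta hearts, and Rpl3l has its 3 delta levels between 5.20 and 5.26, below all arrays but control replicate 1.

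Rpl3l, the muscle paralog of Rpl3, was lower in delta than in I183M and I183P hearts on every array, where most of the family was higher. Its level was 5.26, 5.20 and 5.26 in delta hearts. It was 5.43, 5.80 and 5.75 in I183M hearts and 5.50, 5.55 and 5.49 in I183P hearts, against 4.28, 5.64 and 5.59 in control hearts. The delta arrays lay below every array of the other lines except control replicate 1, which read lowest as for the rest of the family. With all 12 arrays the fold of delta over control hearts was 0.07 ± 0.33 (SE; limma adjusted p = 0.949). Without control replicate 1 it was -0.37 ± 0.12 (adjusted p = 0.204), and on the normexp and quantile scale with all arrays -0.46 ± 0.10 (adjusted p = 0.151). Delta over I183M hearts gave -0.42 and delta over I183P hearts -0.28, with an adjusted p of 1 each by limma over all arrays. Both stayed below 0 in every setting run (25 and 26 settings, many of them refits with 1 array left out), with limma adjusted p from 0.0572 and 0.174 upward. These lowest values came from normexp and quantile normalization without control replicate 1, a setting chosen after seeing the data. Delta over control hearts was below 0 in 6 of 25 settings and ranged from -0.46 to 0.45.

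Rpl3, the parent gene, forms part of the large subunit near the peptidyl transferase centre. It read 5.34, 5.36 and 5.41 in delta, 4.99, 5.26 and 5.15 in I183M and 5.21, 5.11 and 5.03 in I183P hearts, against 3.86, 5.11 and 5.22 in control hearts. The difference between the probes of Rpl3l and Rpl3 on the same array does not depend on the scaling of that array, and its size is no measure of relative abundance, but it can be set between arrays. It was -0.08, -0.16 and -0.15 in delta, 0.45, 0.53 and 0.60 in I183M and 0.29, 0.45 and 0.46 in I183P hearts, against 0.42, 0.53 and 0.37 in control hearts. Here control replicate 1 lay among the other arrays, and the 3 delta arrays lay below all 9 others. The mean was -0.13 ± 0.04 in delta and 0.44 ± 0.08 in control hearts (SD, n = 3 each), a difference of -0.57. Against I183M hearts the difference was -0.66 and against I183P hearts -0.53. The exact two-sided permutation p was 0.1 in each of the 3 comparisons, the smallest that 3 against 3 arrays can give, and 0.42 after adjustment over the 42 comparisons of 7 paralog pairs. I183P replicate 3, on the slide of the delta arrays, had 0.46. On the normexp and quantile scale delta hearts differed by -0.63 from control hearts, by -0.68 from I183M hearts and by -0.56 from I183P hearts.

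The other paralogs were set against their parents in the same way. Rps4l minus Rps4x was lower in all 3 mutant lines than in control hearts. It was -3.03, -3.26 and -3.33 in I183M, -3.13, -3.22 and -3.19 in I183P, and -3.08, -2.90 and -3.72 in delta hearts, against -2.78, -2.64 and -2.85 in control hearts. No mutant array overlapped the control arrays, with differences of -0.45, -0.42 and -0.48 (exact permutation p = 0.1 each, 0.42 adjusted). Delta replicate 3 lay farthest from the rest. On the normexp and quantile scale the delta and control arrays overlapped.

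Rps4l on its own read 2.64, 2.74 and 2.58 in I183M, 2.66, 2.54 and 2.48 in I183P and 2.89, 3.02 and 2.31 in delta hearts, against 1.51, 3.17 and 3.14 in control hearts. Without control replicate 1 its fold was -0.50 ± 0.19 in I183M, -0.59 ± 0.19 in I183P and -0.41 ± 0.19 in delta hearts (SE; limma adjusted p = 0.726, 0.453 and 0.372), and with all arrays 0.05, -0.05 and 0.13. With array quality weights, which gave control replicate 1 little weight, Rps4l was at -0.58 in I183P against control hearts with a limma adjusted p of 0.0456, and Rpl7l1 at -0.40 with 0.0421. That setting called 3.71% of all features in this comparison, so 2 of 87 lies below the background. They were the only calls for any ribosomal protein gene in any setting.

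Rpl7l1, a relative of Rpl7, gave a low reading of -0.66, -0.73 and -0.72 in I183M, -0.89, -0.88 and -0.62 in I183P and -0.55, -0.60 and -0.52 in delta hearts, against -1.59, -0.39 and -0.55 in control hearts. Minus Rpl7 it was lower in I183M and delta than in control hearts without overlap, by -0.36 and -0.38 (exact permutation p = 0.1, 0.42 adjusted). On the normexp and quantile scale the mean difference was higher in mutant than in control hearts, and control replicate 1 read -9.77 there, beside -7.35 and -7.58 for the other control arrays.

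Rpl22l1, paralog of the large subunit protein Rpl22, read 4.50, 5.17 and 5.06 in I183M, 4.71, 4.74 and 4.77 in I183P and 4.86, 4.72 and 4.95 in delta hearts, against 3.10, 4.71 and 4.73 in control hearts. Its fold of I183M over control hearts, 0.73 ± 0.40 (SE; limma adjusted p = 0.877), was the largest of the family in that comparison and was 0.19 without control replicate 1. Minus Rpl22 it was higher in delta than in control hearts without overlap, by 0.15, and by 0.17 on the normexp and quantile scale (exact permutation p = 0.1, 0.42 adjusted). Rpl36al minus Rpl36a was higher in I183M than in control hearts without overlap, by 0.13 and 0.12 on these scales (exact permutation p = 0.1, 0.42 adjusted). The folds of Rpl36al and Rps27l with all arrays were 0.52 and 0.43 in I183M, 0.49 and 0.36 in I183P and 0.56 and 0.54 in delta hearts against control. None of these exceeded 0.09 in size without control replicate 1. Rpl10l was well above background on 1 I183M, no I183P, 1 delta and 1 control array, and Rpl39l on 1, 3, 2 and 2, so their folds are not given, although Rpl10l had the smallest p of the family in I183P against I183M hearts (limma adjusted p = 1).

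**Figure D4:**
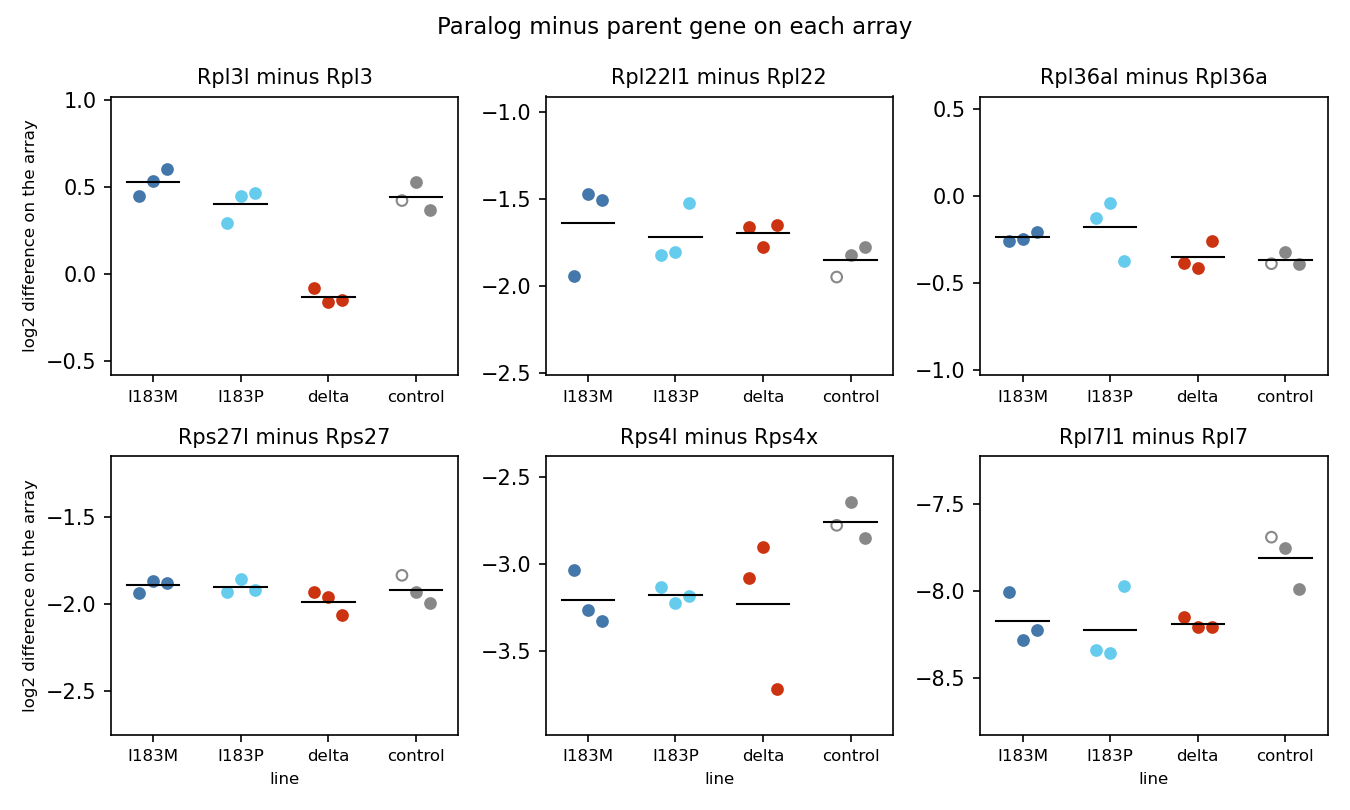
The log2 difference between the probe of a paralog and that of its parent gene on the same array (y axis) in the 4 lines (x axis), for 6 pairs; each point is 1 array, bars are means of 3 arrays, the open circle is control replicate 1 and all panels span the same height. Rpl3l minus Rpl3 lies between -0.16 and -0.08 in delta hearts and between 0.29 and 0.60 elsewhere, and Rps4l minus Rps4x lies highest in control hearts.

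Between the mutant lines the family's median folds were at most 0.15 in size. In delta against I183P hearts the median log2 fold was 0.15 with 84 of 87 genes above 0, beside a median of 0.15 and 68.1% above 0 over all features. In delta against I183M hearts it was 0.09 (70 above 0), beside -0.02 and 47.6%, and in I183P against I183M hearts -0.06 (11 above 0), beside -0.10 and 35%. Without control replicate 1 15 genes had an unadjusted p under 0.05 as higher in delta than in I183P hearts (17.2% of members, background 8.36%), among them Rps21, Rpl21 and Rpl5, and 1, Rpl3l, as lower (background 3.91%). On the normexp and quantile scale the median of this comparison was 0.05.

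Rps23rg1, a retroposed copy of Rps23, gave the lowest reading of the genes counted with the small subunit and had among the 3 smallest p in 2 comparisons. It read -0.36, -0.37 and -0.56 in delta hearts and -0.63, -0.91 and -0.74 in I183M hearts, a fold of 0.33 ± 0.24 (SE; limma adjusted p = 1). In I183P hearts it read -0.72, -0.73 and -0.35, the last being the array on the slide of the delta arrays. With slide as a block the fold of delta over I183M was -0.05.

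Some of these genes are in common use as reference genes. With control replicate 1 left out, Rplp0 had folds of 0.10 in I183M, 0.05 in I183P and 0.18 in delta hearts over control, Rpl13a -0.03, 0.01 and 0.18, and Rpl32 -0.02, 0.02 and 0.25. Rps6, the substrate of the S6 kinases, had 0.03, -0.12 and -0.03, and Rpl11, which binds Mdm2 when ribosome assembly fails, had 0.02, -0.10 and 0.06. No adjusted p of these genes was under 0.3 by limma.

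The median SD within lines was 0.417 log2 units over all arrays, beside 0.453 for all features and 0.385 for features well above background on all arrays. It was 0.100 without control replicate 1, beside 0.270 and 0.171. Rps7 and Rpl28 were among the lowest without that array, at 0.0617 and 0.0661, and over all 12 arrays Rps23rg1, Rpl7l1 and Rps24 had the lowest and Rps4l, Rpl39l and Rpl10l the highest, 0.514 to 1.94. That order depended on the scale. With normexp and quantile normalization Rpl7l1 and Rps23rg1 had the highest SD of the family, 0.654 and 0.552, beside a family median of 0.0707. Of the members above background on all arrays, Rpl4 had the highest without control replicate 1, 0.216, with its low level on I183M replicate 2. The median correlation between pairs of the 79 genes outside the paralog list was 0.98 over the 12 arrays and 0.72 over 11, a description that shares the scaling of each array, and 0.26 over 11 arrays on the normexp and quantile scale. Respiratory chain genes gave 0.97, 0.53 and 0.10.

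Probes of the same gene mostly agreed. Of 53 genes with several probes, all probes had 1 sign in 46 genes for I183M, 45 for I183P and 47 for delta against control hearts, and in 44 for delta against I183P hearts. The number was 39 for I183P against I183M and 30 for delta against I183M hearts, where 23 genes had probes of both signs. The folds of a gene's probes spanned a median of 0.08 to 0.13 log2 units in the 6 comparisons. The widest span was 3.24, in I183P against control hearts, and 2.14 in I183P against I183M hearts. Rps21, Rpl3l, Rpl3, Rpl4 and Rps4l each had 1 probe.

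Genes that make, control or work with ribosomes gave no call either. Without control replicate 1, 0 of 36 translation factors, 0 of 51 nucleolar assembly genes, 0 of 10 chaperones and importers, 0 of 19 mTORC1 genes and 0 of 11 p53 targets passed in delta against control hearts, where 0.175% of all features did. At an unadjusted p under 0.05 there were 3 translation factors higher and 1 lower, 3 nucleolar genes lower, 2 mTORC1 genes higher and 3 lower, and 2 p53 targets in each direction, where 9.78% of all features were higher and 5.2% lower. The median log2 fold was 0.05 for translation factors, -0.03 for nucleolar genes, 0.12 for chaperones and importers, -0.03 for mTORC1 genes and -0.03 for p53 targets. Among 78 mitochondrial ribosomal proteins the median was -0.08, with 23 above 0, and 0.10 with 74 of 87 above 0 among the cytosolic ones. With all arrays the smallest p of these lists in delta against control hearts was that of Eif3j1, a loosely bound subunit of initiation factor eIF3, at 0.88 ± 0.22 (SE; limma adjusted p = 0.304), followed by Ipo5, an importin that carries ribosomal proteins, at 0.85 ± 0.34 (adjusted p = 0.621) and Eef1a1, the carrier of aminoacyl-tRNA, at 0.86 ± 0.35 (adjusted p = 0.638). Leaving out control replicate 1 gave 0.68, 0.44 and 0.40 (limma adjusted p = 0.0973, 0.352 and 0.297).

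Genes with and without a pyrimidine tract at their annotated start had similar median folds. Without control replicate 1 the median log2 fold in delta over control hearts was 0.12 for the 14 genes with a tract and 0.09 for the 52 without, in I183P over control hearts -0.00 and -0.05, and in I183M over control hearts 0.02 and 0.01.

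The genes lie on 19 chromosomes, and 8 of them share chromosome 17 with Nkx2-5. Rpl3l and Rps2 are neighbours there with 1 protein-coding gene between them, and 79 and 81 protein-coding genes lie between them and Nkx2-5. Rps10 is nearer, with 15 genes between. Over the 11 arrays Rps2 had a fold of -0.07 in delta over control hearts, beside -0.37 for its neighbour Rpl3l.

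Ventricular markers were read on all arrays, and markers of other cell types varied between arrays. All 12 ventricular cardiomyocyte markers were well above background on all arrays, with a median between -0.16 and 0.11 on the 11 arrays other than control replicate 1. That count does not mark out the ventricle. It was 5 of 6 for atrial and 8 of 8 each for fibroblast, endothelial and smooth muscle markers. For macrophage markers it was 7 of 8, for erythroid 5 of 5 and for lymphocyte 4 of 8. The median of 6 atrial markers ranged from -1.87 on I183P replicate 3 to 1.98 on delta replicate 1, and that of 8 fibroblast markers from -0.52 on delta replicate 3 to 0.20 on delta replicate 1. Medians of endothelial, smooth muscle and macrophage markers lay between -0.31 and 0.25, those of lymphocyte markers between -0.44 and 0.44, and those of adipocyte markers, 2 of 5 above background on all arrays, between -1.76 and 1.24. Fast skeletal muscle markers, 4 of 6 above background on all arrays, had medians between -0.52 and 0.48, and erythroid markers between -0.53 and 0.70. Their part in the ribosomal protein values was not tested.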

How the data were processed

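RNA of 12 samples in 4 groups of 3 was measured on 12 single-colour Agilent arrays. The deposited scanner files hold processed intensity made by the authors with Agilent Feature Extraction 11.0.1.1 and protocol GE1_1100_Jul11, per the file headers. The submitters' processing notes name limma, with the version not given. The authors also deposited a table of log2 values of the same arrays, used as an alternative.

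Here control and outlier spots were left out, spots of a probe averaged, and log2 intensity taken minus each array's 75th percentile. Of 55681 probes, 27235 were named by matching unversioned accessions to RefSeq GRCm38.p6. Probes well above background on at least 3 of 12 arrays were tested (41591), and a gene was read by its tested probe with the highest mean, giving 29795 features. The 4 groups were fitted with limma 3.58.1 in R 4.3.3, with p adjusted by Benjamini-Hochberg over all features at 0.05. The fit was tested on simulated data with 200 changed features, whose spread was taken from the mutant lines alone. No simulated array was like control replicate 1, so it cannot show how the fit handles that array. Paralog differences used exact two-sided permutation tests. The normexp alternative (offset 50) used the median spot signal, as the files hold no mean signal column. The number of arrays limits the precision.

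Members and lists were chosen with earlier results of these data known. Genes were named by a rule: all measured paralogs, the 4 smallest p against control, the 3 smallest between mutant lines, the extremes of SD, 6 reference or well-known genes, and 2 genes of each other list. Some results under this rule are not reported here. Rpl3, Rpl15, Rpl21 and Rpl5 were added after their values were seen. Leaving out control replicate 1 was among the settings listed first, and combining that with normexp or with slide was chosen after seeing the data. Same-numbered samples deviated together in I183M and control hearts (correlations 0.50 to 0.79) and in no other pair of groups throughout; the labels give no source for a pairing.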

Additional observations from a re-analysis of the deposited data

How the results depend on the processing

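The count of ribosomal protein genes past the threshold was 0 in all 6 comparisons under every alternative except array quality weights, which gave 2 in I183P against control hearts (2.3%, with 3.71% of all features called). These were Rps4l and Rpl7l1, and the fold of Rpl7l1 turned to -0.40 there. Leaving out one array at a time kept every count between 0 and 0. The median log2 fold then ranged from 0.01 to 0.73 in I183M, from -0.04 to 0.66 in I183P and from 0.10 to 0.82 in delta against control hearts, with control replicate 1 giving the low end. It ranged from -0.13 to -0.0047 in I183P against I183M, from 0.0088 to 0.13 in delta against I183M and from 0.11 to 0.18 in delta against I183P hearts. With each array's median in place of its 75th percentile, the family's median was 1.20 in I183P against control, 0.50 in I183P against I183M, 0.24 in delta against I183M and -0.26 in delta against I183P hearts, while that of all features was 0.76, 0.46, 0.13 and -0.26. Delta against I183P was 0.0469 with normexp and quantile normalization, with or without control replicate 1, and 0.0470 in the authors' table. With slide as a block it was 0.25, also within slide 2 and without control replicate 1, and delta against I183M was 0.23 in both block fits. The cause was not tested.

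With the replicate number as a block, 0 members were called in all 6 comparisons and the medians were 0.48, 0.41 and 0.57 in I183M, I183P and delta against control hearts, -0.06 in I183P against I183M, 0.09 in delta against I183M and 0.15 in delta against I183P hearts. Of 18 correlations between same-numbered samples, 6 were over 0.1. All 3 between I183M and control hearts were (0.79, 0.56 and 0.50), and in no other pair of groups were all 3, so the block bears on that comparison, where it changed no call.

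No slide held delta arrays with control or I183M arrays, so delta and slide cannot be told apart for those pairs except through I183P, which had 1 array on slide 2. Over all features, the number of calls in delta against control hearts was unstable. It was 22, against 0 with slide as a block, with median scaling, with only the arrays of these groups, or without control replicate 3 or delta replicate 1. It was 52 without control replicate 1, 281 with that and normexp and quantile normalization, and 852 with array quality weights. Genes with 1 probe have no second reading.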
